A study of Mus musculus with 8 samples.

Results

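The 36 genes described here belong to the unfolded protein response and the integrated stress response, and were taken by a list of symbols out of the 33641 measured. They comprise 15 chaperones and folding enzymes of the endoplasmic reticulum (ER), 5 genes for stress sensors and the transcription factor Xbp1, 8 genes of the Atf4 arm, and 8 genes of ER-associated degradation and protein translocation. Transcripts were sequenced from bone marrow haematopoietic stem cells of C57BL/6 mice, sorted with the SLAM surface markers that the deposited files name. The 4 groups, of 2 libraries each, were Scribble null, Yap1 Taz null, Triple null (Scribble, Taz and Yap1) and wild type. The labels give no age, and the series describes the libraries of a group as experimental replicates without saying whether they came from separate animals, so p-values measure only the spread between these libraries. Every group carried Mx1-Cre, wild type included, and had received polyI:C in 6 intraperitoneal injections of 10 mg/kg, with cells taken 1 week after induction. Mx1-Cre is driven by an interferon-inducible promoter and acts in many tissues, and polyI:C imitates viral RNA and so raises interferon, so all 8 libraries come from cells exposed to an interferon stimulus, and no library from uninduced animals was analysed here.

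Values are TPM, transcript abundances which are divided by transcript length and scaled to the same total in each library, so levels of different genes can be set side by side, while sequencing depth is unknown. All 10 stem cell markers were detected, with a summed level of 1682 to 2191 TPM. Levels of the targeted genes did not check the labels, so each genotype is named here as its libraries are labelled. Scrib had 6.25 and 7.63 TPM in Scribble null, 7.98 and 7.32 TPM in Yap1 Taz null and 14.5 and 7.54 TPM in Triple null, against 8.19 and 9.29 TPM in wild type. Yap1 had 5.83 and 2.45 TPM in Scribble null, 2.13 and 6.63 TPM in Yap1 Taz null and 2.25 and 2.37 TPM in Triple null, against 2.00 and 2.15 TPM in wild type. Wwtr1, the gene of Taz, had 5.32 and 3.91 TPM in Scribble null, 1.09 and 1.15 TPM in Yap1 Taz null and 1.92 and 0.775 TPM in Triple null, against 0.730 and 1.19 TPM in wild type. None of the 3 genes was lower in every library labelled as lacking it than in wild type, and whether the values include reads from outside a deleted segment is not known. The median gene was higher in each null group than in wild type by 0.12 to 0.14 on the log2 scale, and changes of the stress genes are given beside that shift. The second Scribble null library correlated slightly more with a Triple null library (r = 0.958 across genes, which are not independent) than with its own replicate (r = 0.953).

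Proteins that enter the ER are folded by chaperones of the Hsp70 and Hsp90 families, by the lectins calnexin and calreticulin and by disulfide isomerases. When unfolded protein builds up, the sensors Ire1 (gene Ern1), Atf6 and Perk (gene Eif2ak3) are activated: Ire1 splices Xbp1 messenger RNA, Atf6 is cleaved to a transcription factor, and both outputs raise chaperone and degradation genes through the ER stress response element in their promoters. Perk, and Gcn2 (gene Eif2ak4), which senses amino acid shortage, phosphorylate the translation factor eIF2, which lowers general protein synthesis and favours translation of Atf4, a factor that binds CEBP-ATF elements in genes of amino acid supply and cell death. Haematopoietic stem cells are known for a low rate of protein synthesis and for sensitivity to ER stress. The steps of splicing, cleavage, phosphorylation and translation are not seen in gene-level messenger RNA values.

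Promoter windows of 250 bases before to 50 bases after the transcription start (RefSeq, GRCm38.p6) were given for 32 of the 36 genes, and 2 short elements were searched in them on both strands. The CEBP-ATF response element, TGATGNAA, was in Trib3, Asns, Chac1 and Herpud1, 4 of the 32 (12.5%), and in 1304 of 32851 mouse promoters (3.97%). The first share counts genes, which had 35 windows between them, and the second counts windows, so the units differ. The element is shown where it lies before the start, because Atf4 acts through elements of this kind. The stretches are written on the strand of the gene with the fixed letters of the element in capitals, and in Chac1 and Herpud1 the element lies on the opposite strand.
Asns, chr6:7693220-7693237, minus strand: ccacaTGATGaAActtcc
Chac1, chr2:119351044-119351061, plus strand: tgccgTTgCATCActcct
Herpud1, chr8:94386312-94386329, plus strand: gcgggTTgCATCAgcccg
The elements began 23 bases (Asns), 193 bases (Chac1) and 112 bases (Herpud1) before the start. The unfolded protein response element, TGACGTGG, was in no window of these genes and in 222 of all promoters (0.676%). The ER stress response element named above is a different, longer element and was not searched. A match of letters is a description of the window and not evidence of a bound site.

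All 36 genes passed the filter, a level of 1 TPM or more in 2 or more libraries, which 16064 genes passed. The most abundant was Hspa5 (BiP, the Hsp70 chaperone that holds the sensors inactive), with a mean of 393 TPM over the 8 libraries, followed by Hsp90b1 (Grp94) at 324 TPM and Ppp1r15a (Gadd34, which directs the phosphatase that reverses eIF2 phosphorylation) at 259 TPM. The least abundant was Chac1, a glutathione-degrading enzyme, at 0.645 TPM. Steady levels were common, and in 24 of the 36 genes the highest library was less than 2 times the lowest. Among the chaperones that ratio was 1.31 for Hspa5 and 6.45 for Sdf2l1, and in the Atf4 arm it was 1.44 for Atf4 and 53.2 for Chac1.

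**Figure D1:**
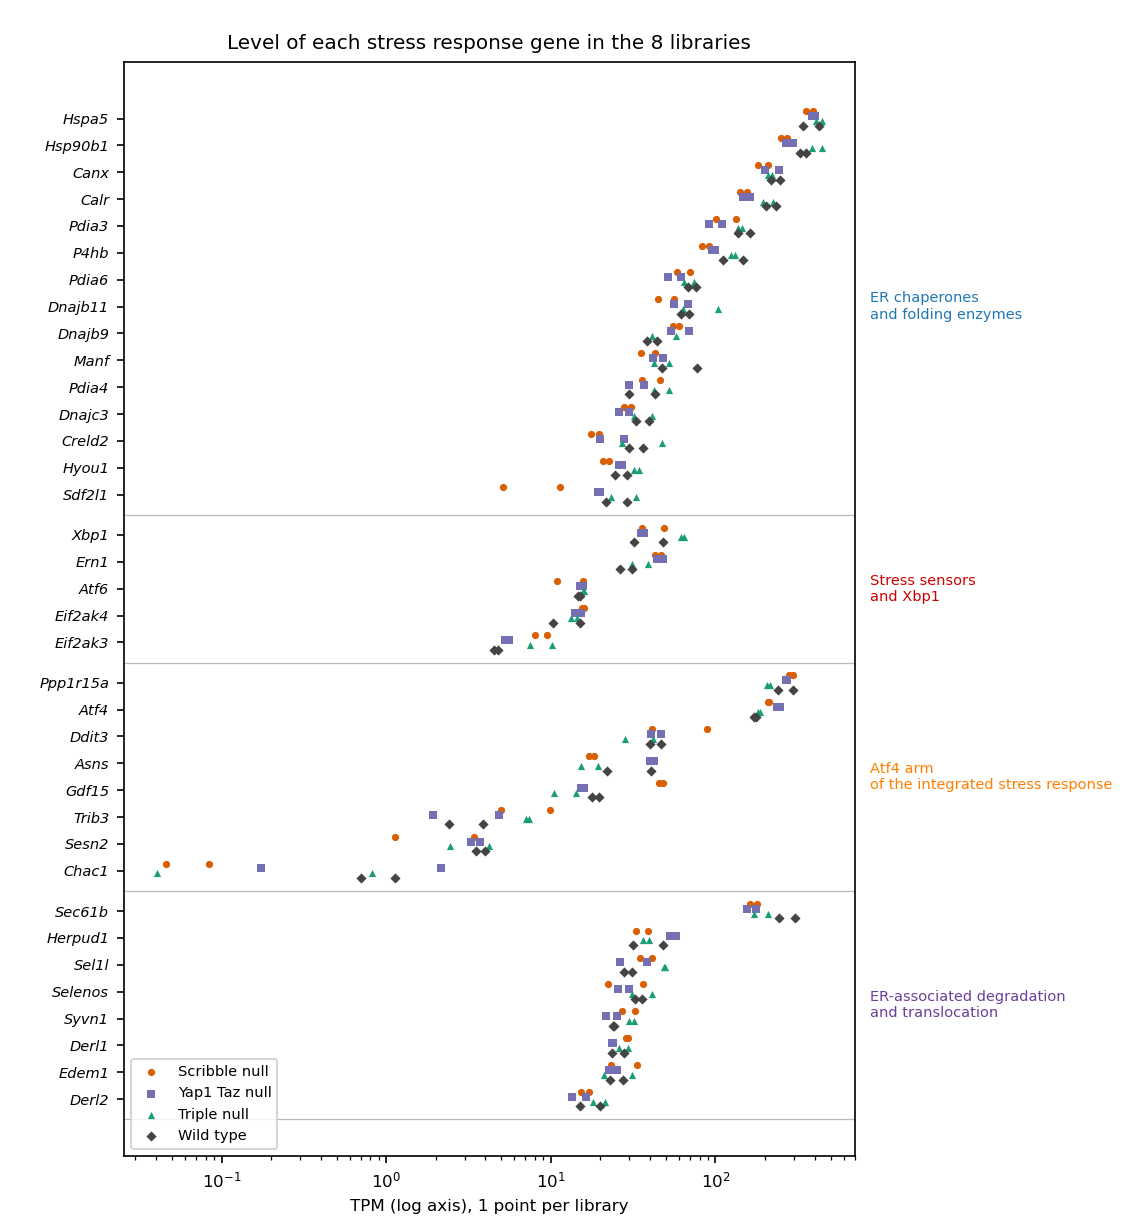
TPM on a log axis for each of the 36 genes, 1 point per library, by role and ordered by mean level. Chaperone levels run from a mean of 20.3 TPM for Sdf2l1 to 393 TPM for Hspa5, and the widest scatter is that of Chac1, whose mean is 0.645 TPM.

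Each null genotype was set against wild type, and the Triple null against each of the other null genotypes. Scribble null was not set against Yap1 Taz null. A gene was called changed at an adjusted p under 0.05 over all genes tested (limma). Gdf15, a secreted stress cytokine of the TGF-beta family induced through Atf4 and Ddit3 among other routes, was the only one of the 36 genes called in any comparison. In Scribble null against wild type, 1 of the 36 was called, where 1.3% of all genes were, and 12 of the 36 had an unadjusted p under 0.05, against 18.2% of all genes. None was called in Yap1 Taz null against wild type (0.99% of all genes called; 7 of the 36 at an unadjusted p under 0.05, against 14.3%) or in Triple null against wild type (0.579% called; 7 of the 36, against 10.9%). In Triple null against Scribble null 1 was called (0.212% of all genes; 10 of the 36 at an unadjusted p under 0.05, against 9.15%), and in Triple null against Yap1 Taz null none was (0.181% of all genes; 10 of the 36, against 8.41%). With 2 libraries per group an exact permutation test of a single gene cannot give a two-sided p below 0.333.

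Gdf15 lies on chromosome 8 (70629393 to 70632456, minus strand, GRCm38) and shares no exon bases with another annotated gene. It had 47.9 and 45.6 TPM in Scribble null, 15.3 and 15.9 TPM in Yap1 Taz null and 14.3 and 10.5 TPM in Triple null, against 19.7 and 17.8 TPM in wild type. Both Scribble null libraries stood far above the other 6, and the Triple null libraries were the lowest. Gdf15 rose in Scribble null, at 46.7 ± 1.63 TPM against 18.8 ± 1.34 TPM in wild type (SD, n = 2 each), a log2 change of 1.27 (SE 0.21) and a fold of 2.42, with an adjusted p of 0.0356. It was lower in Triple null, at 12.4 ± 2.68 TPM (SD, n = 2), than in Scribble null, with a log2 change of -1.85 (SE 0.21), a fold of 0.277 and an adjusted p of 0.0147. The fold changes are on the log2(TPM + 1) scale. Against wild type, Gdf15 had a log2 change of -0.58 in Triple null (95% interval -1.07 to -0.09, adjusted p = 0.374) and of -0.25 in Yap1 Taz null (95% interval -0.74 to 0.24, adjusted p = 0.622), neither passed, and the alternatives gave -0.78 to -0.37 and -0.42 to -0.11. The call against wild type rested on the residual spread of all 8 libraries: leaving out any 1 library put its adjusted p between 0.061 and 0.207, with a log2 change of 1.20 to 1.34. The call of Triple null against Scribble null held without either Yap1 Taz null library (adjusted p = 0.0457 and 0.0459) and was lost without any other single library (0.0523 to 0.156). Median-ratio scaling also ended the call against wild type (log2 change 1.11, adjusted p = 0.0509), as did the replicate block (adjusted p = 0.0588). Granulocyte and myeloid progenitor markers had a higher sum in each null group than in wild type, and the highest in Scribble null. The 9 markers summed to 546 and 383 TPM in Scribble null, 259 and 242 TPM in Yap1 Taz null and 311 and 303 TPM in Triple null, against 171 and 199 TPM in wild type. Nearly all of that was Prtn3 and Csf3r, while Ly6g and S100a8 were listed at 0 in all 8 libraries, and the part of such cells in the Gdf15 difference was not tested.

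No other gene of the Atf4 arm was called in any comparison. Atf4 itself had 211 and 208 TPM in Scribble null, 237 and 247 TPM in Yap1 Taz null and 187 and 181 TPM in Triple null, against 172 and 176 TPM in wild type. Its groups did not overlap in any comparison with wild type, in which 33.2% (Scribble null), 32% (Yap1 Taz null) and 30.9% (Triple null) of all genes also stood above wild type without overlap. The log2 change was 0.47 in Yap1 Taz null (SE 0.11, adjusted p = 0.112), 0.27 in Scribble null (adjusted p = 0.248) and 0.08 in Triple null, and none passed. Over the alternatives these ran from 0.30 to 0.58, from 0.09 to 0.35 and from -0.06 to 0.11, in each case lowest under median-ratio scaling, under which the Triple null change turned negative.

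Ddit3 (Chop), a pro-apoptotic factor downstream of Atf4, had 88.4 and 41.0 TPM in Scribble null, 46.7 and 40.5 TPM in Yap1 Taz null and 42.0 and 28.2 TPM in Triple null, against 47.0 and 40.0 TPM in wild type. A single Scribble null library was high and its replicate lay within the wild-type range, so the groups overlapped. Of the exon bases of Ddit3, 4.0% also lie in Mars on the opposite strand.

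Ppp1r15a had 297 and 279.9 TPM in Scribble null, 270.4 and 269 TPM in Yap1 Taz null and 213 and 204 TPM in Triple null, against 294 and 241 TPM in wild type. The Triple null libraries were the lowest, with a log2 change of -0.35 against wild type (SE 0.13, adjusted p = 0.371; -0.49 to -0.21 over the alternatives). Asns, which makes asparagine, had 18.2 and 17.1 TPM in Scribble null, 40.1 and 42.2 TPM in Yap1 Taz null and 19.3 and 15.3 TPM in Triple null, against 22.1 and 40.8 TPM in wild type. The 4 Scribble null and Triple null libraries were all below both wild-type and both Yap1 Taz null libraries, and the wild-type pair lay far apart. The log2 change against wild type was -0.74 in Scribble null (adjusted p = 0.230; -1.16 to -0.31 over the alternatives) and -0.77 in Triple null (adjusted p = 0.379; -1.20 to -0.34). In Triple null against Yap1 Taz null its log2 change was -1.21 (SE 0.29, adjusted p = 0.245).

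Trib3, a pseudokinase that restrains Atf4 and Ddit3, had 4.99 and 9.86 TPM in Scribble null, 4.85 and 1.92 TPM in Yap1 Taz null and 7.42 and 7.02 TPM in Triple null, against 2.42 and 3.86 TPM in wild type. The Scribble null and Triple null libraries all exceeded wild type, with adjusted p of 0.291 and 0.461. Sesn2, an amino acid sensing stress protein, ranged from 1.13 to 4.19 TPM, and Chac1 from 0.0405 to 2.16 TPM, at which level the pseudocount of 1 governs the fold change. Over the 8 genes the median log2 change was 0.19 in Scribble null, 0.01 in Yap1 Taz null and -0.34 in Triple null against wild type, beside 0.14, 0.14 and 0.12 for all genes. The first of these turned to -0.00 when 1 library was left out and the second to -0.13 under median-ratio scaling, while the Triple null median was negative under every alternative, from -0.49 to -0.19.

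**Figure D2:**
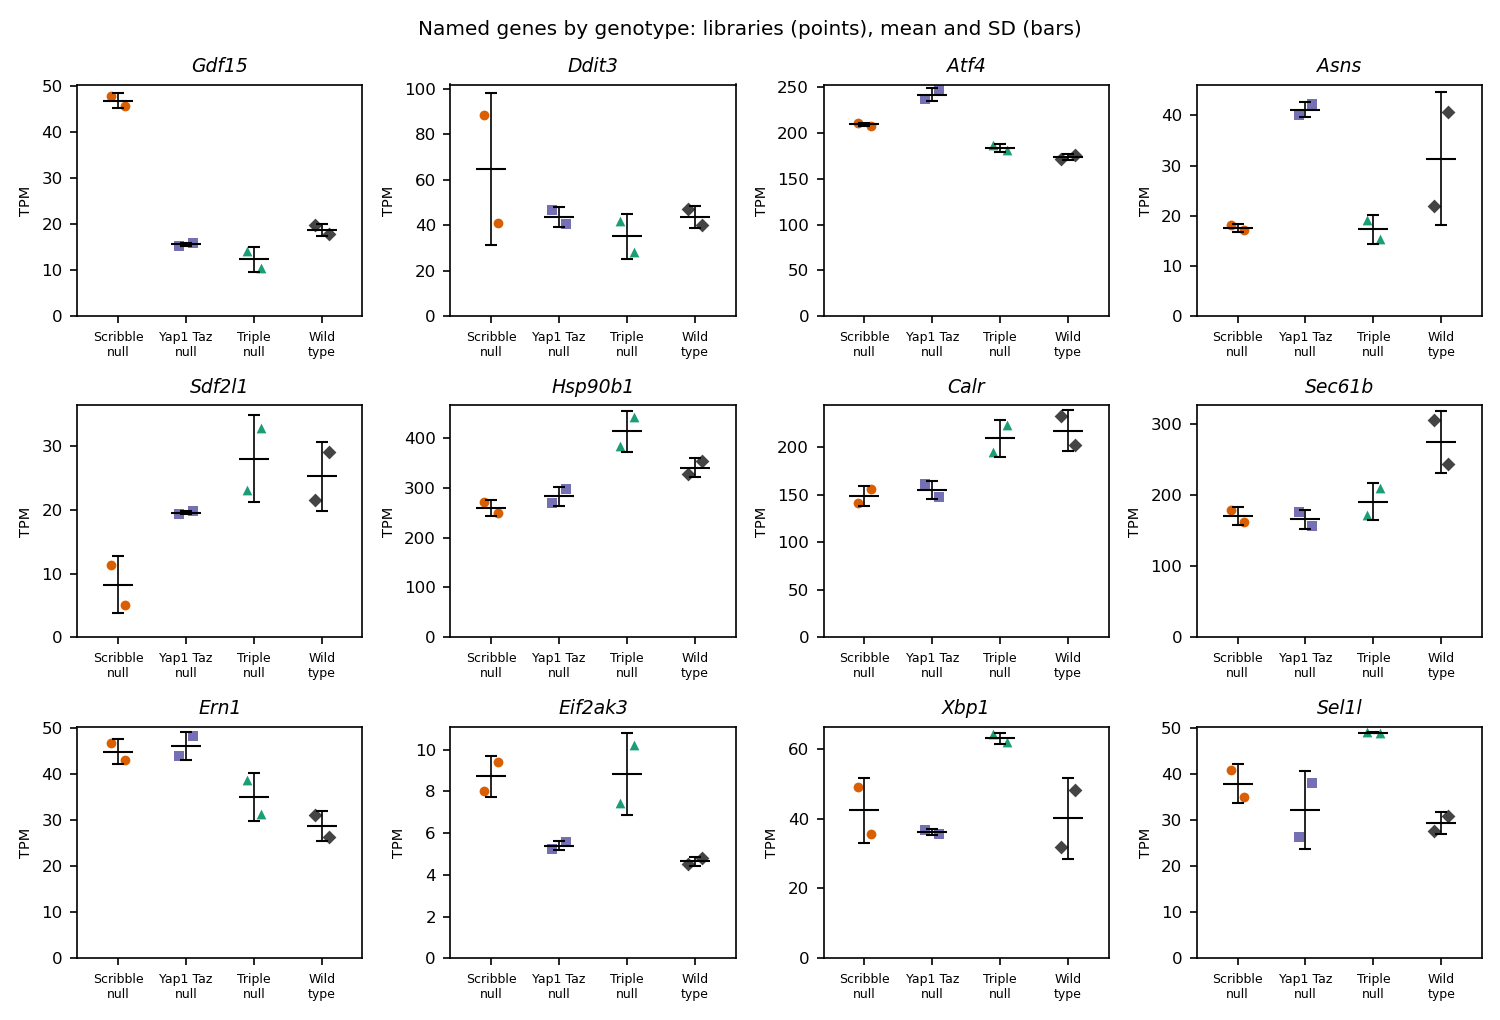
TPM from 0 for 12 named genes by genotype, with a point per library and the mean and SD (n = 2) as bars. Gdf15 is highest in Scribble null at 46.7 TPM, Sdf2l1 is lowest there at 8.27 TPM, and Hsp90b1 is highest in Triple null at 413 TPM.

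The ER chaperones and folding enzymes were low in both Scribble null and Yap1 Taz null and near wild type in Triple null. These comparisons share the wild-type libraries, and the genes of a list are not independent. In Scribble null, 13 of the 15 had a negative log2 change against wild type, where 62.5% of all genes had a positive one. Of the 15, 11 lay below both wild-type libraries without overlap, where 15.7% of all genes did. In Yap1 Taz null, 13 of the 15 were negative, where 63.9% of all genes were positive. Of the 15, 8 lay below without overlap, where 14.5% of all genes did. In Triple null 10 of the 15 (66.7%) were positive, close to the 63% of all genes. Of the 15, 2 lay above without overlap, where 30.9% of all genes did. The median log2 change was -0.35 in Scribble null and -0.34 in Yap1 Taz null, beside 0.14 for all genes in both, and 0.12 in Triple null, beside 0.12. None of the 15 was called in any comparison, and 6, 4 and 0 of them had an unadjusted p under 0.05 in these 3 comparisons, against 18.2%, 14.3% and 10.9% of all genes. The negative medians kept their sign under every alternative, from -0.53 to -0.20 in Scribble null and from -0.51 to -0.18 in Yap1 Taz null. The Triple null median turned to -0.01 under median-ratio scaling and to -0.04 without its second library.

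Summed, the 15 genes had 1588 and 1430 TPM in Scribble null, 1597 and 1616 TPM in Yap1 Taz null and 1909 and 2015 TPM in Triple null, against 1853 and 1844 TPM in wild type. The Scribble null and Yap1 Taz null sums all lay below the wild-type and Triple null sums. In bulk libraries of this kind, fewer cells that express a gene and less RNA per cell cannot be told apart.

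Hspa5 did not follow the list. It had 392 and 353 TPM in Scribble null, 383 and 404 TPM in Yap1 Taz null and 407 and 442 TPM in Triple null, against 338 and 428 TPM in wild type. The wild-type pair alone spanned most of that range. Its log2 change from wild type was -0.03 in Scribble null, 0.05 in Yap1 Taz null and 0.16 in Triple null (95% interval -0.16 to 0.48). Each of the 3 took the other sign under at least 1 alternative, with ranges of -0.21 to 0.14, -0.13 to 0.22 and -0.01 to 0.33.

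Hsp90b1, the ER member of the Hsp90 family, had 271 and 248 TPM in Scribble null, 269 and 296 TPM in Yap1 Taz null and 384 and 442 TPM in Triple null, against 327 and 353 TPM in wild type. The groups were in separate ranges except for the overlap of Scribble null and Yap1 Taz null. Its log2 change was 0.66 in Triple null against Scribble null (SE 0.12, adjusted p = 0.132), 0.54 against Yap1 Taz null (SE 0.12, adjusted p = 0.223) and 0.28 against wild type (SE 0.12, adjusted p = 0.472). The first was 0.44 in the authors' whole-series table, and the last 0.13 under median-ratio scaling and 0.17 without the second Triple null library. Of the exon bases of Hsp90b1, 10.3% overlap the pseudogene 1810014B01Rik on the opposite strand, which averaged 12.8 TPM.

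Sdf2l1, a small partner of ER chaperone complexes, had 11.4 and 5.10 TPM in Scribble null, 19.5 and 19.8 TPM in Yap1 Taz null and 23.2 and 32.9 TPM in Triple null, against 21.5 and 29.2 TPM in wild type. Both Scribble null libraries were far below the rest. The log2 change in Scribble null against wild type was -1.58 (SE 0.36, adjusted p = 0.0875), the largest in size among the 36 genes in that comparison, and 1.72 in Triple null against Scribble null (SE 0.36, adjusted p = 0.178).

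Calr, the calcium-binding lectin calreticulin, had 141 and 156 TPM in Scribble null, 161 and 148 TPM in Yap1 Taz null and 195 and 223 TPM in Triple null, against 232 and 202 TPM in wild type. The Scribble null and Yap1 Taz null libraries were all below the others, and Triple null overlapped wild type. The log2 change against wild type was -0.54 in Scribble null (SE 0.14, adjusted p = 0.105) and -0.48 in Yap1 Taz null (SE 0.14, adjusted p = 0.182).

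The disulfide isomerase P4hb was also lower in Scribble null, at 90.9 and 82.4 TPM, and in Yap1 Taz null, at 99.9 and 94.8 TPM, than in wild type, at 147 and 110.5 TPM, with an adjusted p of 0.141 and 0.334. The related Pdia3 had 133 and 101 TPM in Scribble null and 110.1 and 90.8 TPM in Yap1 Taz null, against 161 and 137 TPM in wild type, with an adjusted p of 0.340 and 0.220. Dnajb9 (ERdj4), a co-chaperone of BiP that dampens Ire1, went the other way, with 55.3 and 59.8 TPM in Scribble null, 69.1 and 53.8 TPM in Yap1 Taz null and 41.3 and 57.3 TPM in Triple null, against 38.5 and 44.2 TPM in wild type. It stood above wild type without overlap in the first 2 of these groups, with an adjusted p of 0.285 and 0.287. Other chaperones, Canx, Pdia4, Pdia6, Dnajb11, Dnajc3, Manf, Creld2 and Hyou1, had group means between 18.6 TPM (Creld2, Scribble null) and 232 TPM (Canx, wild type).

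Between the null genotypes the chaperones were higher in Triple null. Against Scribble null, 14 of the 15 had a positive log2 change, where 48.2% of all genes did. Of the 15, 11 lay above without overlap, where 19% of all genes did. The median was 0.30, beside -0.01 for all genes. Against Yap1 Taz null, 13 of the 15 were positive, where 47.6% of all genes were. Of the 15, 10 lay above without overlap, where 18.7% of all genes did. The median was 0.39, beside -0.02. These comparisons share the Triple null libraries. Both medians were positive under every alternative, from 0.23 to 0.42 and from 0.30 to 0.42.

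Plasma cell markers, from a cell type rich in ER chaperones, were unequal between the Triple null libraries. Fkbp11 and Derl3 among them are also in the further ER folding and degradation lists described below. The 7 measured markers summed to 19.2 and 68.8 TPM in Triple null, against 11.6 to 22.7 TPM in the other 6 libraries. The high value was mostly Jchain, at 54.7 TPM. Jchain alone was higher in both Triple null libraries than in the other 6, where it was 0.795 to 1.46 TPM. The sum does not show this for the first Triple null library. Mzb1 and Tnfrsf17 were under 1 TPM in all 8 libraries. Without the second Triple null library the chaperone median was 0.36 against Scribble null and 0.34 against Yap1 Taz null. The Triple null library kept in that fit also had raised Jchain. The part of plasma cell markers in the chaperone differences was not tested. The 7 megakaryocyte markers summed to 1156 and 1300 TPM in wild type. The sums were 465 and 476 TPM in Scribble null, 625 and 622 in Yap1 Taz null, 499.8 and 531 in Triple null. Only Pf4 was higher in both wild-type libraries, at 816 and 958 TPM, against 94.9 to 222 TPM in the null libraries. Itgb3 was lower, at 18.6 and 28.5 TPM in wild type against 34.9 to 68.5 TPM in the null libraries. For Ppbp, Gp1bb, Gp9, Itga2b and Vwf wild type overlapped the null libraries. The part of the megakaryocyte markers in the differences from wild type was not tested.

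**Figure D3:**
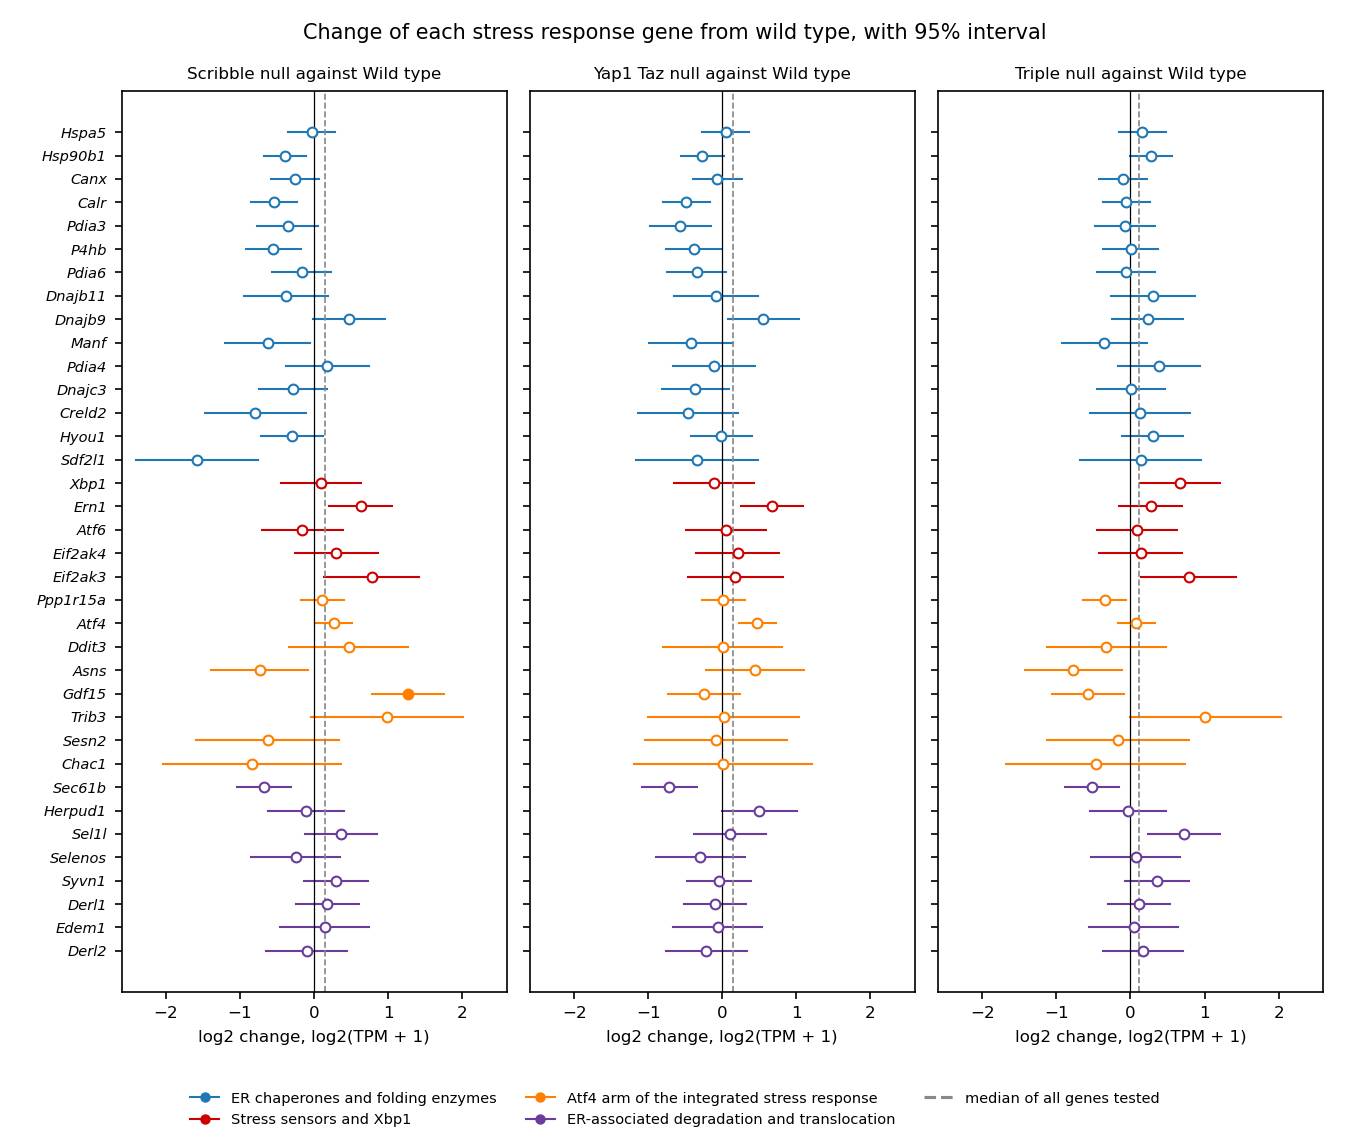
Log2 change of each of the 36 genes from wild type with its 95% interval (limma, not adjusted for the number of genes), coloured by role, in 3 comparisons, with a dashed line at the median of all genes. The filled point is the called gene, Gdf15 in Scribble null, and most chaperones lie left of the dashed line in Scribble null and Yap1 Taz null.

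Among the stress sensors, Ern1, Eif2ak3 and Eif2ak4 had higher means in every null group than in wild type, as the median gene did, and none passed. Ern1 had 46.7 and 42.9 TPM in Scribble null, 43.9 and 48.2 TPM in Yap1 Taz null and 38.7 and 31.3 TPM in Triple null, against 31.0 and 26.4 TPM in wild type. All 6 null libraries exceeded both wild-type libraries. The log2 change was 0.63 in Scribble null (SE 0.18, adjusted p = 0.138), 0.67 in Yap1 Taz null (SE 0.18, adjusted p = 0.174) and 0.27 in Triple null (SE 0.18, adjusted p = 0.625; 0.12 to 0.42 over the alternatives).

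Eif2ak3 had 8.0 and 9.42 TPM in Scribble null, 5.24 and 5.56 TPM in Yap1 Taz null and 7.44 and 10.2 TPM in Triple null, against 4.50 and 4.81 TPM in wild type. The libraries labelled as lacking Scribble were the highest, with a log2 change of 0.78 in Scribble null (SE 0.28, adjusted p = 0.203) and 0.78 in Triple null (SE 0.28, adjusted p = 0.361). Of its exon bases 8.0% overlap the transcript model Gm43292 on the opposite strand. Atf6 was nearly level, with 11 and 15.8 TPM in Scribble null, 15.8 and 15.0 TPM in Yap1 Taz null and 15.7 and 15.8 TPM in Triple null, against 14.6 and 15.0 TPM in wild type. Eif2ak4 (Gcn2) had 15.4 and 15.8 TPM in Scribble null, 13.9 and 15.2 TPM in Yap1 Taz null and 13.2 and 14.4 TPM in Triple null, against 10.3 and 15.1 TPM in wild type. Its groups overlapped wild type in Yap1 Taz null and Triple null, and in both the change turned negative without the first wild-type library. That of Eif2ak3 in Yap1 Taz null turned negative under quantile normalization.

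Xbp1, the factor made from the messenger RNA that Ire1 splices, had its highest level in Triple null. It had 48.9 and 35.7 TPM in Scribble null, 36.7 and 35.5 TPM in Yap1 Taz null and 64.1 and 61.9 TPM in Triple null, against 31.8 and 48.3 TPM in wild type. Both Triple null libraries lay above the other 6. The log2 change was 0.67 against wild type (SE 0.23, adjusted p = 0.359), 0.58 against Scribble null (adjusted p = 0.507) and 0.79 against Yap1 Taz null (adjusted p = 0.401), and none passed. Over the alternatives the first was lowest, at 0.38, without the first wild-type library, and the second, at 0.36, without the second Scribble null library. Spliced and unspliced Xbp1 are not separated in these values.

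Of the degradation and translocation genes, Sec61b had the smallest p in Scribble null and in Yap1 Taz null against wild type. It encodes a subunit of the Sec61 channel, through which new proteins enter the ER. Sec61b had 179 and 162 TPM in Scribble null, 176 and 156 TPM in Yap1 Taz null and 172 and 209.5 TPM in Triple null, against 305 and 244 TPM in wild type. Every null library was below both wild-type libraries. The log2 change was -0.68 in Scribble null (SE 0.16, adjusted p = 0.0948), -0.72 in Yap1 Taz null (SE 0.16, adjusted p = 0.108) and -0.52 in Triple null (SE 0.16, adjusted p = 0.289).

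Sel1l, the scaffold of the Hrd1 ubiquitin ligase complex, had 40.9 and 35.0 TPM in Scribble null, 26.3 and 38.1 TPM in Yap1 Taz null and 49.1 and 49.0 TPM in Triple null, against 27.7 and 31.0 TPM in wild type. Like Xbp1 it was highest in both Triple null libraries, with a log2 change of 0.72 against wild type (SE 0.21, adjusted p = 0.266), 0.36 against Scribble null (adjusted p = 0.664) and 0.61 against Yap1 Taz null (adjusted p = 0.487). In the authors' whole-series table the first 2 were 0.46 and 0.13, and the last was 0.35 without the first Yap1 Taz null library. Syvn1, which encodes the Hrd1 ligase itself, had 32.4 and 27.0 TPM in Scribble null, 21.5 and 25.2 TPM in Yap1 Taz null and 30.0 and 31.8 TPM in Triple null, against 23.8 and 24.2 TPM in wild type. Herpud1, an organiser of that complex with a CEBP-ATF element in its promoter window, was highest in Yap1 Taz null, at 58.0 and 52.7 TPM, against 31.4 and 47.8 TPM in wild type (adjusted p = 0.358). Edem1, Derl1, Derl2 and Selenos, which hand misfolded proteins to the degradation machinery, had group means from 14.8 TPM (Derl2, Yap1 Taz null) to 36.2 TPM (Selenos, Triple null). Derl1 has a near-identical processed pseudogene, Gm35638, which is not among the symbols measured.

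By their labels the groups form a cross of genotypes, in which Scribble null can be set against wild type and Triple null against Yap1 Taz null. The levels of the targeted genes, given above, did not check those labels. These comparisons share no library, and their difference is the departure of the Triple null from additivity, tested in the same fit. For 14 of the 15 chaperones the change was more positive in Triple null against Yap1 Taz null than in Scribble null against wild type, and the median departure was 0.70 on the log2 scale, beside -0.15 for all genes. The exception was Dnajb9, at -0.79. Of all genes, 39.8% had a positive departure. None of the 36 genes was called, where 0.635% of all genes were. At an unadjusted p under 0.05 there were 14 of the 36, against 14.5% of all genes, of which 9 were chaperones.

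Departures of single chaperones were 0.93 for Hsp90b1 (SE 0.17, adjusted p = 0.0734), 0.97 for Calr (SE 0.19, adjusted p = 0.0873), 0.94 for P4hb (SE 0.23, adjusted p = 0.143) and 2.06 for Sdf2l1 (SE 0.50, adjusted p = 0.145). Hsp90b1 passed under median-ratio scaling, with a departure of 1.14 and an adjusted p of 0.0343, and had 0.50 in the authors' whole-series table. The chaperone median stayed positive under every alternative, from 0.50 to 0.90. It was 0.66 without the second Triple null library, which had the higher of the 2 raised Jchain values.

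In the Atf4 arm 3 of 8 departures were positive (37.5%), close to the 39.8% of all genes. Their median was -0.48, beside -0.15 for all genes, and it stayed negative under every alternative (-0.58 to -0.27). Gdf15 had a departure of -1.60 (SE 0.30, adjusted p = 0.0734), which passed with a filter of 5 TPM (adjusted p = 0.0495). Its log2 change was 1.27 in Scribble null against wild type and -0.33 in Triple null against Yap1 Taz null (-0.53 to -0.12 over the alternatives). Atf4 had a departure of -0.66 (SE 0.15, adjusted p = 0.126), Ern1 of -1.02 (SE 0.26, adjusted p = 0.153) and Sec61b of 0.87 (SE 0.23, adjusted p = 0.159). Trib3 had a log2 change of 0.98 in Scribble null against wild type (0.55 to 1.41 over the alternatives) and of 0.99 in Triple null against Yap1 Taz null (0.49 to 1.49). Eif2ak3 had 0.78 and 0.60 (the second 0.40 to 0.81). The intervals are wide and do not show equality.

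**Figure D4:**
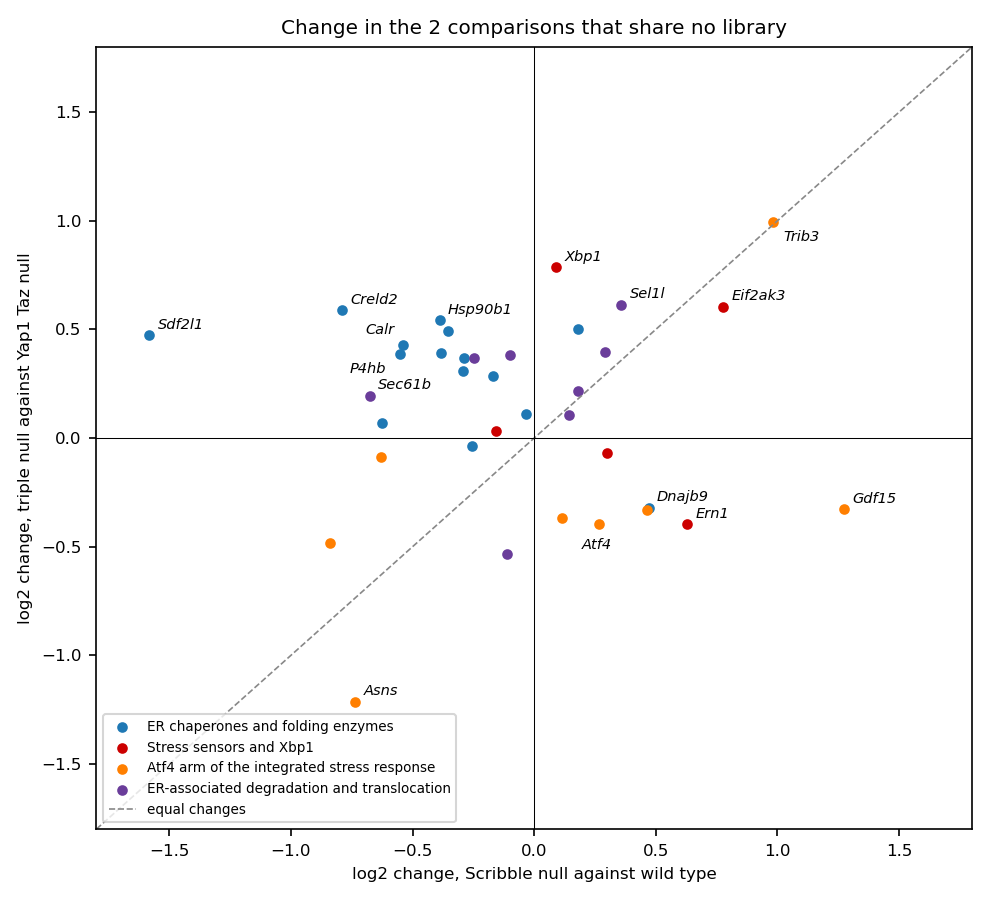
Log2 change in Scribble null against wild type (x axis) and in Triple null against Yap1 Taz null (y axis), by the labelled genotypes, 1 point per gene, coloured by role, with a dashed line where the changes are equal. Of the 15 chaperones 14 lie above the line, and Gdf15 lies far below it at 1.27 and -0.33.

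Further genes of the same pathways were read from 4 lists that share no gene with the 36. Among 43 other ER folding and translocation genes none was called in any comparison, with 9, 5 and 2 at an unadjusted p under 0.05 in Scribble null, Yap1 Taz null and Triple null against wild type, where 18.2%, 14.3% and 10.9% of all genes were. Against wild type their median log2 change was -0.08 in Scribble null and -0.003 in Yap1 Taz null, beside 0.14 for all genes in both. In Triple null it was 0.05, beside 0.12. For the 15 chaperones these medians were -0.35, -0.34 and 0.12. The median departure of the 43 genes was 0.18, beside -0.15 for all genes, with 30 of 43 positive, where 39.8% of all genes were. The smallest p in the list belonged to Spcs3, a signal peptidase subunit, in Scribble null (log2 change -0.61, adjusted p = 0.116) and to Ostc, an oligosaccharyltransferase subunit, in Yap1 Taz null (-0.92, adjusted p = 0.105). Among 25 other degradation genes none was called either, with 4, 2 and 3 at an unadjusted p under 0.05, beside those same shares of all genes, and the ubiquitin ligase gene Rnf5 had a log2 change of 0.95, 0.91 and 1.10 in the 3 groups (adjusted p = 0.135, 0.202 and 0.186).

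Of 47 other integrated stress response and Atf4 target genes, 44 were tested. Only Vegfa, the angiogenic growth factor, was called, and only in Triple null against Yap1 Taz null (log2 change -1.49, SE 0.20, adjusted p = 0.0459) and in the departure from additivity, where 0.181% and 0.635% of all genes were called. It had 76.7 and 89.2 TPM in Scribble null, 102 and 120.3 TPM in Yap1 Taz null and 42.2 and 35.5 TPM in Triple null, against 60.5 and 82.8 TPM in wild type. The serine synthesis gene Psat1 had the smallest p in Scribble null against wild type (log2 change -0.76, adjusted p = 0.0832), and Nupr1, a stress-induced chromatin protein, in Yap1 Taz null (0.93, adjusted p = 0.094).

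The last list holds 20 cytosolic and mitochondrial heat shock genes. Hsph1 (Hsp110), a nucleotide exchange factor for Hsp70, had 557 and 565 TPM in Scribble null, 404 and 443 TPM in Yap1 Taz null and 292 and 317 TPM in Triple null, against 244 and 247 TPM in wild type. All null libraries were above wild type, and Scribble null was highest. Of the 20 heat shock genes it was the only one called against wild type, in Scribble null (log2 change 1.19, SE 0.11, adjusted p = 0.00172) and in Yap1 Taz null (0.78, adjusted p = 0.0163). In Triple null against Scribble null, Hsph1 (-0.88, adjusted p = 0.0212) and Hspa1a (-0.80, adjusted p = 0.0347) were lower, where 0.212% of all genes were called. Hspa1a, an inducible Hsp70, was also lower in Triple null than in Yap1 Taz null (-0.84, adjusted p = 0.0388), where 0.181% of all genes were called. Its values are uncertain because Hspa1b is a near-identical copy. The Scribble null call of Hsph1 held without any 1 library (adjusted p = 0.00509 to 0.0342), and its Yap1 Taz null call held in 3 of 8 such fits (0.0245 to 0.148). The calls of Hsph1 and Hspa1a between null genotypes, and that of Vegfa in Triple null against Yap1 Taz null, were lost without any 1 library (0.0532 to 0.318).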

How the data were processed

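Per the labels' protocols, RNA went through RNeasy columns, Ovation RNA-Seq v2 amplification and Nextera XT library preparation. The authors deposited a TPM table per library, and the submitters' processing notes name TopHat and mm10. The quantifier, its strand setting and its treatment of repeated sequence were not given in the sources used here, and TPM keeps no depth. A further deposited table of the whole series holds signal values in an unnamed unit for 28987 identifiers (94.7% matched to symbols). It was treated as linear, since its log2 values had a slope of 0.932 to 0.941 on log2 TPM over genes at 1 or more in both, and used only as an alternative.

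Groups came from the labels. Log2(TPM + 1) values of 16064 genes (at least 1 TPM in at least 2 of 8 libraries) were fitted with limma 3.58.1 (R 4.3.3), with a mean per group, a mean-variance trend, 4 residual and 4.00 prior degrees of freedom, and Benjamini-Hochberg adjustment over all genes. Such fold changes understate the change of low genes. The 36 genes, the further lists and the tests were chosen with earlier results of these data known. Library values are given for called genes, for the smallest p per role and comparison, and for Hspa5, the sensors, Xbp1, Atf4, Ddit3 and Ppp1r15a. P4hb, Pdia3, Dnajb9, Trib3, Herpud1 and Syvn1 were added after their values were seen. From the further lists, called genes are named, or the gene with the smallest p in some comparisons. Positions are from GENCODE M21 (GRCm38, which is mm10), copies from BLAST 2.17.0 (95% identity over 80% of the length) and promoters from RefSeq. The fit was tested on simulated data. Alternatives changed the pseudocount (0.25), filter, scaling, trend, model, table, block or libraries.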

Additional observations from a re-analysis of the deposited data

Results flagged for a closer look

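No group had enough libraries to test a library as standing apart. Among the stress genes and the further lists, 3 genes were flagged because the change in Triple null against Yap1 Taz null differed from that in Scribble null against wild type, by the limma test of the departure from additivity. None of the 3 is among the 36 genes, and 0.635% of all genes were called in that test.

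Hsph1 had a departure of -1.66 on the log2 scale (SE 0.15, adjusted p = 0.00247), with a change of 1.19 in Scribble null against wild type and of -0.47 in Triple null against Yap1 Taz null. Hspa1a had a departure of -1.15 (SE 0.15, adjusted p = 0.0177), from 158 and 163 TPM in Triple null, 280 and 280 TPM in Scribble null, 288 and 289 TPM in Yap1 Taz null and 235 and 218 TPM in wild type. Its reads cannot be told apart with certainty from those of the near-identical Hspa1b. Vegfa had a departure of -1.71 (SE 0.28, adjusted p = 0.0457). Leaving out 1 library at a time kept the call of Hsph1 in 8 of 8 fits (adjusted p = 0.0105 to 0.0244), of Hspa1a in 1 of 8 (0.0348 to 0.108) and of Vegfa in 0 of 8 (0.061 to 0.201).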

How the results depend on the processing

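The 2 libraries a group limit the precision, and depth is unknown. In Scribble null against wild type 1 of the 36 genes was called, and 0 were without a filter, under median-ratio scaling, without the mean-variance trend, with the replicate block, in a fit of those 2 groups only, and without any 1 library (0 to 0). In Triple null against Scribble null 1 was called, 0 in a fit of those groups only and 0 to 1 without 1 library. In the departure from additivity 0 were called, and 1 was with a filter of 5 TPM and 1 under median-ratio scaling. No other count of called members changed, and no called gene or gene with the smallest p in its role and comparison turned direction. Of the 216 changes of the 36 genes over the 6 comparisons, 77 took the other sign under at least 1 alternative, the largest at 0.48 in size in the main fit. Among log2 changes printed above these were Hspa5 against wild type in each null group and Atf4 in Triple null against wild type, and counts of genes by direction move with such changes. Reversed values could be larger than 0.48. In the authors' whole-series table the chaperone Canx moved from -0.25 to 0.57 in Scribble null against wild type. Its departure moved from 0.22 to -1.40. The share of all genes called moved more than 1.5 times with the setting: 0.293% to 2.19% in Scribble null, 0.33% to 1.34% in Yap1 Taz null and 0.243% to 0.816% in Triple null against wild type, 0.0685% to 0.38% against Scribble null, 0.0374% to 0.286% against Yap1 Taz null and 0.274% to 1.05% in the departure. Calls of the further lists held under 2 to 17 of their 16 or 17 alternatives, and under all 17 for Hsph1 in Scribble null. Median-ratio scaling brought the median gene to about 0 against wild type. Libraries with the same experiment number did not deviate together (correlations of -0.053 to 0.026), so the block rests on a number only. List medians, and directions of all 36 genes, under the alternatives were added after seeing the data. The cause of these differences was not tested.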
